A study of Capra hircus with 6 samples.

Results

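UBE3A encodes a ubiquitin ligase that takes activated ubiquitin from a conjugating (E2) enzyme onto a cysteine of its HECT domain and passes it to target proteins, many of which are then degraded by the proteasome. In human and mouse neurons the gene is expressed from the maternal allele, and loss of that allele in humans causes Angelman syndrome. Circular RNAs (circRNAs) are closed transcripts in which the 3′ edge of an exon is spliced back to the 5′ edge of the same or an earlier exon. A read across that back-splice junction identifies the circle. Such RNA is a product of the UBE3A gene but not its mRNA, and no mRNA or protein level was measured.

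The UBE3A circRNAs were followed in a back muscle, the longissimus dorsi, of Haimen goats. Kids of 1 day of age (kid) gave 3 libraries and fetuses at day 75 of gestation (fetus) gave 3. In all of them ribosomal RNA had been removed and linear RNA digested with RNase R. Whether each library comes from its own animal is not stated, and the p-values below cover only the spread among libraries, which may be technical. Members were the circRNAs that the files assign to UBE3A, by symbol or by its gene number, and entries with the same end whose starts lie 1 base apart were added together. This gave 9 UBE3A circRNAs from 11 entries, of 23991 circRNAs in all from 25500 entries. UBE3A was picked out from these same libraries for its high circular RNA level and its difference between stages, so its own kid to fetus difference is described without a test.

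The kid libraries held 42695 to 77111 back-splice reads and the fetus libraries 33222 to 56467. Read trimming left 70.7% of reads in fetus 1 and 69.1% in fetus 2, against 84.0% to 87.9% in the other 4 libraries. Circular RNA of 10 of 11 muscle fibre marker genes was detected and summed to 20158 to 25420 CPM in kid and 11840 to 12737 CPM in fetus, with MYH3 at 0, where CPM is reads per 1000000 reads of a library after scaling with TMM factors. For markers and other host genes CPM is relative to reads of circRNAs assigned to genes, and for UBE3A circRNAs to all back-splice reads. Of 7 fibroblast and matrix markers 6 were detected, with 103.3 to 359 CPM in kid and 730 to 1266 CPM in fetus and DCN at 0. Of 5 myogenic precursor markers PAX7 alone was detected, at 0 to 14.8 CPM in kid and 52.1 to 240 CPM in fetus. Of 7 neuronal markers 4 were detected, at 138 to 209 CPM in kid and 107 to 177 CPM in fetus. In such bulk tissue, more cells of a type and more circRNA per cell cannot be told apart.

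All 9 UBE3A circRNAs lie on the minus strand of chromosome 21, between 1465717 and 1525199 as the files number it, on a genome build that none of the labels or headers names. The largest by reads, circRNA2233, runs from 1519363 to 1525199 and is listed as 3 exons, numbers 2 to 4 of its transcript, with a length of 229 bases. Because shorter UBE3A circles with 2 of these exons are listed too, the exon lengths follow by subtraction: 64 bases for exon 2, 120 for exon 3 and 45 for exon 4. The introns between them measure 2351 and 3257 bases. The intron on the upstream side of exon 2 is listed for another UBE3A transcript and spans 30857 bases. On that transcript the intron after exon 3 is listed with 1561 bases, so the annotation within the span of circRNA2233 differs between transcripts. All these lengths are those of the annotation, since only the junction itself is read.

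The circles share a 5′ edge and differ in their 3′ edge. Position 1525199, the 5′ edge of exon 2, was the splice acceptor of 7 of the 9 circRNAs and of 9144 of the 9147 UBE3A reads, made up of 7379 of 7382 in the kid group and 1765 of 1765 in the fetus group. This was 99.97% of UBE3A reads. Over the 297 host genes with at least 200 reads and 2 circRNAs, the most used acceptor held a median of 81.6% of reads. UBE3A included, 13 host genes reached the UBE3A share. An acceptor share cannot be lower than that of the largest circle, 97.3% for UBE3A, so it largely repeats that share. The genes were not compared at equal reads. There were 7 donor positions. The donor at 1519363 closed 8901 reads, or 97.3%, the one at 1506249 closed 119 and the one at 1493590 closed 105. No entry on the opposite strand lay within the span of the UBE3A circles.

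**Figure D1:**
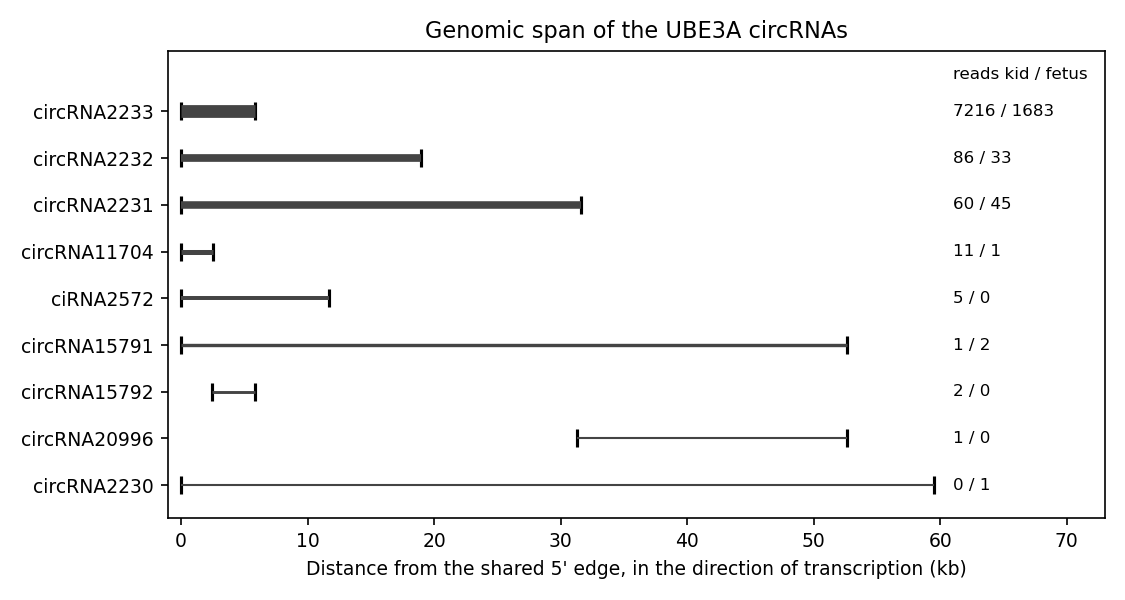
Genomic span of each of the 9 UBE3A circRNAs, drawn as distance in kb from the 5′ edge that 7 of them share, with reads summed over the 3 kid and the 3 fetus libraries at the right. Line width grows with the logarithm of the reads; the circle of 229 bases at the top holds nearly all of them.

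UBE3A had 2784, 1928 and 2670 back-splice reads in the kid libraries, against 505, 456 and 804 in the fetus libraries. This was 3.61%, 4.52% and 3.61% of all back-splice reads in kid and 1.38%, 1.37% and 1.42% in fetus. The stages did not overlap, and the fetus libraries lay close together while kid 2 stood above the other kid libraries. The level was 42438 ± 6179 CPM in kid and 12863 ± 364 CPM in fetus (SD, n = 3 each), relative to all back-splice reads. The host gene fit, scaled to reads of circRNAs assigned to genes, gave a log2 fold change of kid over fetus of 1.72 ± 0.15 (SE), or 3.28-fold. Counted per 1000000 valid reads, a scale that does not rest on the total of circRNAs, UBE3A had 53.5, 39.9 and 51.5 reads in kid and 14.8, 12.6 and 16.9 reads in fetus. On that scale kid 2 was the lowest kid library, so the order within the kid group depends on the scale while the separation of the stages does not. The muscle marker sum given above was also higher in every kid library than in every fetus library, and the matrix marker sum lower. The markers did not all move together. Of 9 tested muscle markers 4 rose (edgeR, adjusted p of 0.05) and 5 did not pass, beside 11% of all tested host genes that rose. NEB alone had a mean of 6844 CPM in kid and 1139 CPM in fetus. Both tested matrix markers fell, beside 8.21% of all tested host genes that fell. COL1A1, not tested, had 1, 11 and 2 reads in kid and 0, 4 and 1 in fetus. The part of these marker genes in the UBE3A difference was not tested.

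Most UBE3A reads were those of circRNA2233. It stood at 38301, 48744 and 37534 CPM in kid, against 12336, 11893 and 12582 CPM in fetus, with a log2 fold change of 1.76 ± 0.14. It had rank 1 among all circRNAs in every kid library. In fetus it had rank 2 in libraries 1 and 3 and rank 3 in library 2, below an entry assigned to no gene, circRNA6691, and in fetus 2 also below a circle of LOC106503383. In the authors' deposited table the log2 fold change, there of fetus over kid, was -1.70.

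The next circle, circRNA2232, runs from 1506249 to 1525199 and is listed with 5 exons and 538 bases on another UBE3A transcript. It had 24, 20 and 42 reads in kid (337, 514 and 607 CPM) and 10, 5 and 18 reads in fetus (255, 137 and 296 CPM). Every kid library was above every fetus library, and the fitted log2 fold change was 1.03 ± 0.40.

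The third, circRNA2231, extends the main circle by exon 5, of 305 bases, to 534 bases, and runs from 1493590 to 1525199. It had 30, 9 and 21 reads in kid (422, 231 and 304 CPM) and 10, 17 and 18 reads in fetus (255, 466 and 296 CPM). The stages overlapped, and the fitted log2 fold change was -0.043 ± 0.40, whose sign turned in 6 of 14 alternatives. A circle with the same acceptor and 1 more exon thus showed no separation of the stages, at a depth of 105 reads in all.

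**Figure D2:**
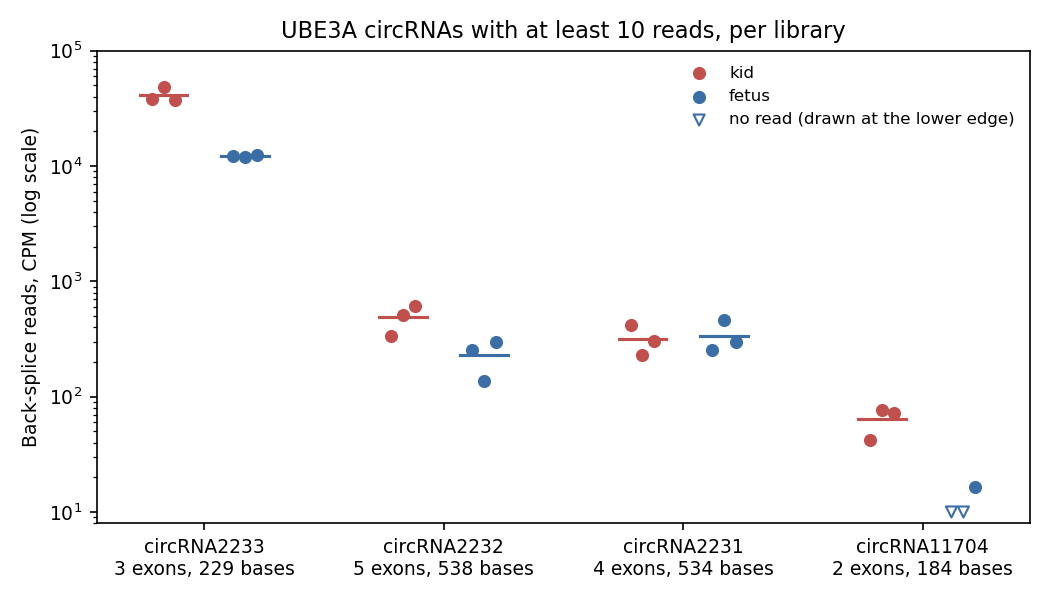
CPM of the 4 UBE3A circRNAs with at least 10 reads on a log axis, 1 point per library with a line at the mean, kid left of fetus for each. circRNA2233 lies at 37534 CPM or more in kid and at 12582 CPM or less in fetus, while the stages overlap for circRNA2231.

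The fourth, circRNA11704, holds exons 2 and 3 (184 bases, 1522665 to 1525199). It had 3, 3 and 5 reads in kid and 0, 0 and 1 read in fetus. Its pooled CPM in kid was 8.38 times that in fetus, a ratio that rests on 1 fetus read and is given without a test. The files list it as 2 entries with starts 1 base apart. One of them has reads in kid 1 and fetus 3, the other in kid 2 and kid 3. The other 5 circRNAs had 12 reads together, 9 in kid and 3 in fetus.

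Among those 5, ciRNA2572 had 5 reads, all in kid 3. The files class it as intronic, although its span from 1513490 to 1525199 holds exons 2 to 4 of the main circle. The longest circle, circRNA2230, covers 11 exons with 1 read in fetus 1. circRNA15791 covers 10 exons, with 1 read in kid 1 and 2 in fetus 3. circRNA15792 joins exons 3 and 4, with 2 reads in kid 1. circRNA20996 covers 7 exons with 1 read in kid 3. A count of 0 allows a share of UBE3A reads of up to 0.0406% in the kid group and 0.170% in the fetus group, so single reads say little about presence in one stage alone. Floors and intervals cover counting error only, as PCR copies are not independent molecules.

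Of the UBE3A circRNAs, circRNA2233, circRNA2232 and circRNA2231 had enough reads for the fit across all circRNAs, and the stages did not overlap for the first pair. Over all 1960 circRNAs in that fit 15.3% passed an adjusted p of 0.05, 9.34% passed it with a higher level in kid, and 37.3% showed no overlap. Since the gene was chosen on this contrast, nothing is read from the counts.

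The mix of circles within the gene was compared between stages as a description, since UBE3A was chosen on this contrast and circRNA2233 holds most of its reads. circRNA2233 made up 97.8%, 98.3% and 97.2% of UBE3A reads in kid and 95.8%, 95.2% and 95.1% in fetus. The Wilson 95% intervals ran from 96.5% to 98.8% over the kid libraries and from 92.8% to 97.3% over the fetus libraries. The share was 97.8 ± 0.557% in kid and 95.4 ± 0.392% in fetus, and every kid library was above every fetus library. The difference was 2.42 percentage points. Over 297 host genes with at least 200 reads and 2 circRNAs, the share of the largest circle showed no overlap in 24.6%.

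Among the smaller circles, circRNA2231 differed most in its share. Per 100 reads of circRNA2233 it had 1.10, 0.475 and 0.809 reads in kid, against 2.07, 3.92 and 2.35 reads in fetus. The stages did not overlap, and the mean was 0.795 ± 0.314 in kid and 2.78 ± 0.996 in fetus (SD, n = 3 each). circRNA2232 had 0.881, 1.05 and 1.62 such reads in kid and 2.07, 1.15 and 2.35 in fetus, which overlap. circRNA11704 had 0.110, 0.158 and 0.193 in kid and 0, 0 and 0.131 in fetus, which overlap too. Smaller circles of other host genes showed no overlap relative to their largest circle in 26.2% of 541 cases.

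**Figure D3:**
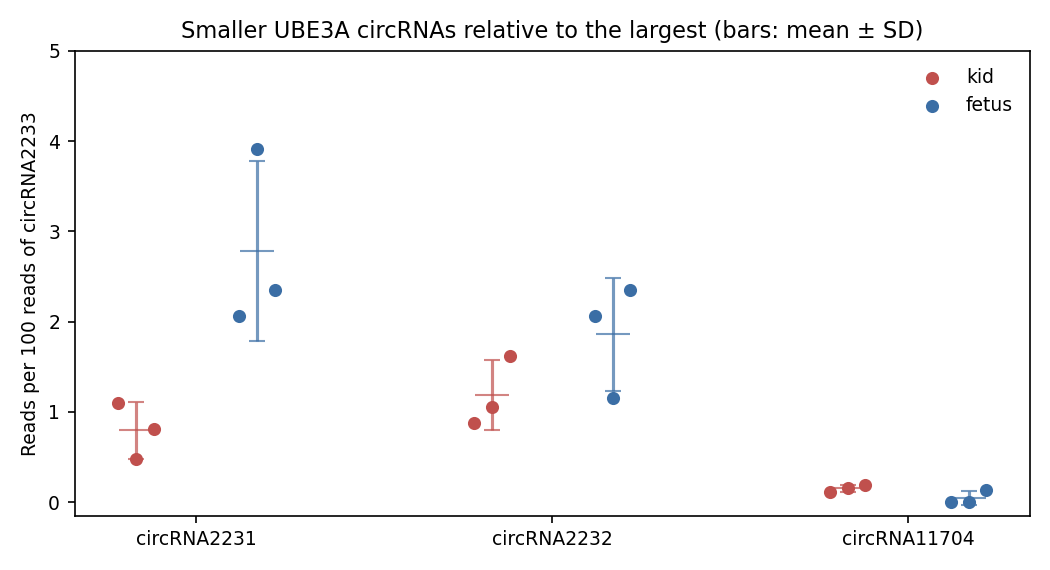
Reads of 3 smaller UBE3A circRNAs per 100 reads of circRNA2233, 1 point per library with mean ± SD, kid left of fetus. For circRNA2231 the kid libraries lie at or below 1.10 and the fetus libraries at or above 2.07; for the other circles the stages overlap.

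A model across all host genes with at least 2 tested circRNAs (diffSpliceDGE of edgeR) gave the change of each circle relative to its gene as a whole. The relative log2 value of kid over fetus was -1.22 for circRNA2231, -0.48 for circRNA2232 and 0.026 for circRNA2233. For circRNA2231 it stayed between -1.43 and -1.02 over 14 alternatives. UBE3A was among the 8.02% of 374 host genes, and circRNA2231 among the 1.12% of 979 circRNAs, that passed an adjusted p of 0.05 for unequal change. Nothing is read from these calls, as the gene was chosen on this contrast, and they were lost in 6 of 14 alternatives for the gene and in 10 of 14 for circRNA2231.

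Summed over the other 8 circRNAs, UBE3A had 60, 32 and 74 reads in kid and 21, 22 and 39 in fetus. Their level was 912 ± 137 CPM in kid and 593 ± 53.7 CPM in fetus, with a log2 fold change of 0.62 ± 0.26 that compares with 1.76 ± 0.14 for circRNA2233. The number of distinct UBE3A circles seen was 6, 4 and 6 in kid and 4, 3 and 5 in fetus, which overlap. At an equal 456 UBE3A reads, the expected number was 3.86, 3.46 and 4.37 in kid and 3.90, 3.00 and 4.38 in fetus, which overlap too.

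Among host genes, the mean UBE3A level over the 6 libraries was the highest of all host genes, ahead of HCFC1R1, LOC102191280 and PRKAA2. The 3 circRNAs next to circRNA2233 in mean CPM were ciRNA127 of HCFC1R1, circRNA2380 of LOC102191280 and circRNA10231, which is assigned to no gene. The level of circRNA10231 was 23696 ± 20393 CPM in kid and 56.6 ± 71.5 CPM in fetus (SD, n = 3 each). The largest circle held 97.3% of UBE3A reads over all libraries, against a median of 69.8% (quartiles 47.6% and 90.3%) over the 297 host genes with at least 200 reads and 2 circRNAs, of which 26, UBE3A included, reached its share. Among the 172 of these with at least 9 circRNAs, the median was 57.0% and UBE3A was the 1 gene at its level or above. The number of circles depends on depth, and the genes were not compared at equal reads. UBE3A reaches 9 through 5 circles with 12 reads together, and at 456 UBE3A reads 3.00 to 4.38 circles were expected per library. Its place among genes with as many circles is therefore not read as a trait of the gene. These are descriptions of the read counts over all libraries, with no test.

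**Figure D4:**
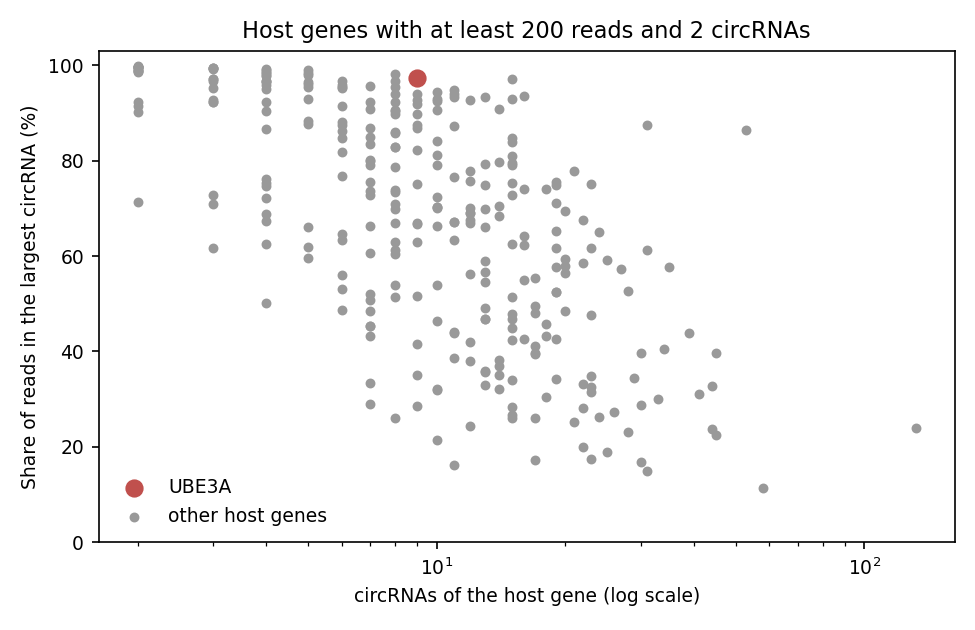
Share of a host gene's back-splice reads held by its largest circRNA (%, y axis) against its number of circRNAs (log x axis), for 297 host genes with at least 200 reads and 2 circRNAs. UBE3A, with 9 circRNAs and 97.3%, lies at the upper edge of the points with as many circles. The number of circles depends on the reads of a gene, which are not equal here.

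The host genes whose circular RNA followed UBE3A most closely over the 6 libraries were LMO7, GPN1, PRKAA2, MICU3 and FAM160A1, among 642 with at least 100 reads. Likeness was the Euclidean distance between log2 CPM values centred on each gene's mean. It was 0.166 for LMO7, 0.274 for GPN1, 0.475 for PRKAA2, 0.477 for MICU3 and 0.488 for FAM160A1, with a median of 2.23 over all candidates. LMO7 is a LIM domain protein, PRKAA2 the alpha 2 catalytic subunit of the energy sensor AMPK, and MICU3 a regulator of calcium entry into mitochondria. Centred on its mean, UBE3A stood at log2 values of 0.74, 1.11 and 0.70 in kid and -0.87, -0.87 and -0.81 in fetus. LMO7 stood at 0.76, 1.00 and 0.82 in kid and -0.88, -0.87 and -0.81 in fetus, so that both genes were highest in kid 2. The measure rests mostly on the difference between stages, which the choice of UBE3A had fixed.

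UBE3A belongs to the HECT ligases, and of 27 other members 24 had circular RNA and 11 had enough reads to test. None of the 11 rose, 2 fell and 9 did not pass, beside 11% of all 1755 tested host genes that rose and 8.21% that fell. The median log2 fold change of the 11 was 0.32, and that of all tested host genes 0.0058. HERC4 had 2436, 1658 and 2555 CPM in kid and 3784, 3152 and 3960 CPM in fetus, with a log2 fold change of -0.70 ± 0.21 (edgeR adjusted p = 0.0235). TRIP12, which ubiquitinates linear ubiquitin fusion substrates, had 458, 580 and 463 CPM in kid and 1172, 972 and 799 CPM in fetus, with a log2 fold change of -0.98 ± 0.29 (edgeR adjusted p = 0.0238). For both the stages did not overlap, as in 37.2% of all host genes. HERC4 did not pass without fetus 1, fetus 3, kid 1 or kid 2, and TRIP12 did not pass without fetus 1, fetus 2, kid 1 or kid 3 (edgeR adjusted p over all alternatives up to 0.310 and 0.361).

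The enzymes before UBE3A in the chain are the E1 activating and E2 conjugating enzymes, of which 10 of 34 were tested: 1 rose, 1 fell and 8 did not pass, with a median log2 fold change of -0.10. Over all tested host genes 11% rose and 8.21% fell, so these counts are near the background. UBE2D1, an E2 of the family that works with many ligases, had 886, 1188 and 941 CPM in kid and 213, 383 and 226 CPM in fetus. The stages did not overlap, the log2 fold change was 1.89 ± 0.34 (edgeR adjusted p = 4.37e-04), and UBE2D1 passed in all 15 alternatives. UBE2Z, an E2 that is loaded by the second E1 enzyme UBA6, had 118, 166 and 120 CPM in kid and 586, 560 and 330.02 CPM in fetus (log2 fold change -1.87 ± 0.45, edgeR adjusted p = 0.00607). It passed in 14 of 15 alternatives, the exception being fetus 3 alone against the 3 kid libraries, where the lone library is assumed to vary like the others (edgeR adjusted p = 0.253). UBE2L3, the E2 best known for charging UBE3A, had 2 reads, both in kid 3.

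**Figure D5:**
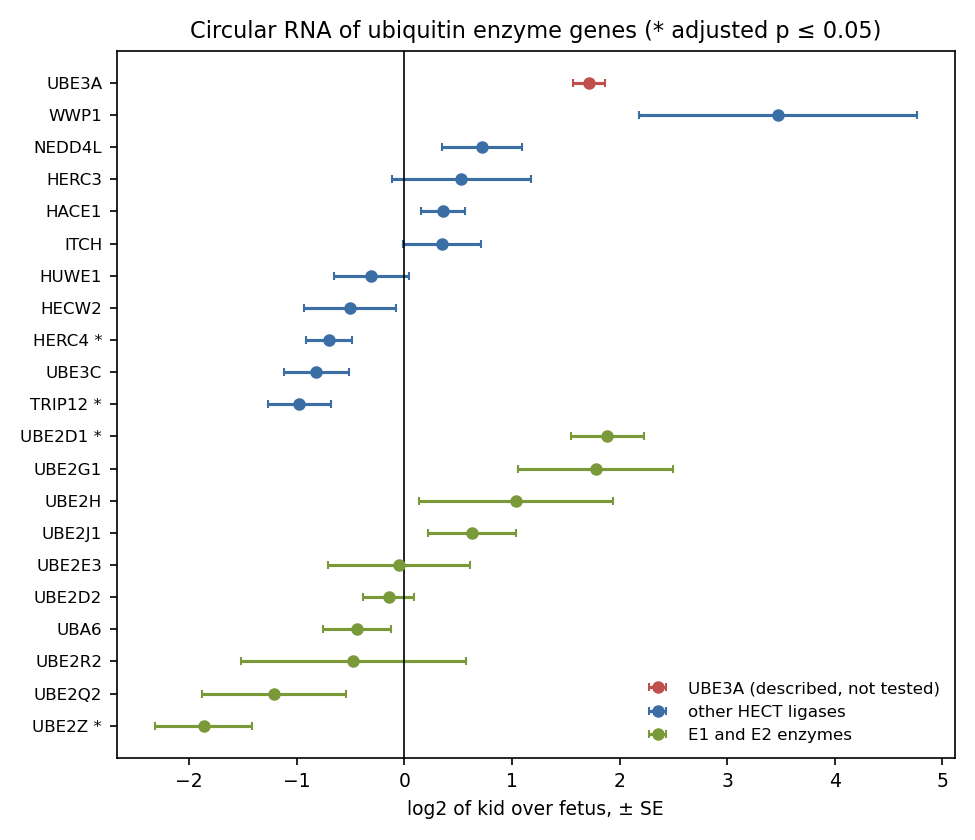
Fitted log2 of kid over fetus ± SE for circular RNA of UBE3A (red), 10 of the 11 other tested HECT ligase genes (blue) and the 10 tested E1 and E2 genes (green), with stars at an adjusted p of at most 0.05. UBE3A lies at 1.72, the starred HECT genes HERC4 and TRIP12 below 0, and UBE2D1 at 1.89; WWP1 at the far right rests on 20 reads and did not pass.

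Among ubiquitin ligases known from muscle, 4 of 19 were tested and none passed (median log2 fold change -0.16). Over all 1755 tested host genes 19.2% passed, so with 4 genes nothing is read from this count. CBLB, a ligase of the RING type, had a log2 fold change of -0.69 ± 0.36 (edgeR adjusted p = 0.193). CBLB had 1 kid library, kid 3, within the fetus range, and passed without it (log2 fold change -1.16, edgeR adjusted p = 0.0487). In the other 14 of 15 alternatives CBLB did not pass. The ligases of muscle atrophy were sparse: TRIM63 had 8, 2 and 9 reads in kid and 1, 0 and 1 in fetus, and FBXO32 0, 3 and 7 in kid and 0, 0 and 1 in fetus.

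In the human genome UBE3A lies in the region of the Prader-Willi and Angelman syndromes. Of 17 genes known from this region 7 had circular RNA and 3 were tested, of which 0 rose, 1 fell and 2 did not pass (median log2 fold change -0.67), beside 11% risen and 8.21% fallen over all tested host genes. OCA2, a melanosome membrane protein, had 399, 442 and 224 CPM in kid and 586, 795 and 851 CPM in fetus (log2 fold change -1.10 ± 0.35, edgeR adjusted p = 0.0314). Its stages did not overlap, and it did not pass without fetus 2, fetus 3, kid 1 or kid 3 (edgeR adjusted p over all alternatives up to 0.221). ATP10A, a phospholipid flippase gene, lies to one side of UBE3A in the human genome. It had 12, 8 and 9 reads in kid and 12, 8 and 16 in fetus (log2 fold change -0.67 ± 0.49, edgeR adjusted p = 0.379). On the other side in human, SNURF had 0, 0 and 3 reads in kid and 0, 0 and 2 in fetus, and SNRPN 1 read, in kid 1. None of these 17 genes had more than the 156 reads of OCA2, against 9147 for UBE3A. Whether they lie near UBE3A in the goat genome was not checked.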

How the data were processed

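Per the labels, strand-marked libraries were made after removal of ribosomal RNA and RNase R digestion. Tools listed in the submitters' processing notes are FastQC, TopHat and cutadapt; settings, circRNA caller and build are not given there. The authors deposited counts of back-splice reads per circRNA, their normalized signal SRPBM (the count times 1 constant per library), and a stage comparison with log2 values (fetus over kid), p-values and q-values. A deposited quality table gives counts of reads and the percent kept. UBE3A counts were the same in both deposited count tables.

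The tables were joined by entry name. Entries 1 base apart were added (1509 pairs), and 4563 hosts given as gene numbers, all matched, took their symbol and chromosome from the RefSeq gene table of assembly ARS1.2; file coordinates are printed as deposited. Features reaching 5 reads in 3 or more libraries entered the quasi-likelihood test of edgeR 4.0.16 (R 4.3.3, robust glmQLFit, TMM, Benjamini-Hochberg adjustment). Libraries were scaled to all back-splice reads for circRNAs, and to reads of exonic and intronic circRNAs for host genes. A back-splice count is of 1 junction per circle and was not divided by length. Shares within UBE3A are given as a description, and circle numbers also after rarefaction. The p-values of these stage differences are left out because the gene was chosen on that contrast. For the same reason the adjusted p for unequal change within UBE3A is printed only to show the effect of the settings. Nothing is read from its calls. The fits were also run on simulated data, and no outcome of that run is given or relied on here. Alternatives included DESeq2 1.42.0 and each library left out.

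Named were UBE3A circRNAs with at least 10 reads (the others were added after their values were seen), in each list the 2 risen and 2 fallen genes of smallest p (where none passed, the 2 of most reads), and the nearest features by level and by likeness. UBE2L3, SNURF, SNRPN, ATP10A, TRIM63, FBXO32, WWP1, circRNA6691 and LOC106503383 were named after their values were seen. One gene that this rule names is not reported here. The members and lists were chosen with earlier results of these data known. Libraries of a stage differed by more than sampling noise (chi-square per degree of freedom 1.64 to 4.12).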

Additional observations from a re-analysis of the deposited data

How the results depend on the processing

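The log2 fold change of UBE3A kept its sign in all 16 alternatives (1.51 to 1.84), as did that of circRNA2233 in 15 and that of the other circles summed in 16. Scaled to total reads without TMM they were 1.51, 1.53 and 0.39, and the median over the tested host genes was -0.20 in place of 0.0058. The summed other circles were at 0.42 without fetus 1 and fetus 2 together. The difference in share of circRNA2233 kept its sign in 12 of 12 (2.15 to 2.70 percentage points). The difference in circles at equal UBE3A reads, 0.137, reversed to -0.605 without fetus 1 and fetus 2 and to -0.066 under the files' own host names, and ran from -0.258 (without fetus 2) through -0.098 (without kid 3) to 0.446 with 1 library left out. The log2 fold change of circRNA2231 reversed to 0.037 with valid reads, 0.090 without a filter and 0.037 without fetus 1 and fetus 2, and ran from -0.29 to 0.14 with 1 library left out, being 0.14 without fetus 2, 0.14 without kid 2 and 0.047 without kid 3.

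The adjusted p for unequal change in UBE3A, from the contrast on which the gene was chosen and so given only to show the effect of the settings, was 0.0148 and became 0.105 with valid reads, 0.258 without a filter, 0.179 without fetus 1 and fetus 2, and 0.0328 to 0.0963 with 1 library left out. With the replicate number as a block it was 0.0648. None of these values is read as evidence of unequal change in UBE3A. The replicate numbers come from the sample titles. Same-numbered libraries deviated with correlations of -0.035, -0.128 and -0.112, and no library correlated best with its own number. With 3 libraries per stage, these values cannot settle whether the numbers mark a pairing or a shared preparation.

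Of all host genes 337 passed, but 199 with valid reads, 62 without fetus 1 and fetus 2 and 180 to 248 with 1 library left out. Of circRNAs 299 passed, but 20 without fetus 1 and fetus 2 and 150 to 216 with 1 left out. In the HECT, E1 and E2, and human UBE3A region lists 5 genes passed. The count was 2 with valid reads, 2 without a filter, 3 with DESeq2 and 2 to 4 with 1 library left out. Fewer libraries entered the fits with any left out; otherwise the cause was not tested. Other named genes and circles gave 147 values, of which 105 kept their call and direction, 35 lost the call, 1 gained it and 6, all of circRNA2231, reversed. The precision for circRNA2231 and circRNA11704 is limited by their 105 and 12 reads.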

Other observations

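The pattern seen for circRNA11704, an entry and its neighbour 1 base away with reads in different libraries, was general. Over the 1509 such pairs in the tables, 31 (2.05%) had reads of both entries in at least 1 library. Kept apart, the entry of circRNA11704 named by gene number (circRNA19994) has reads in kid alone, and the authors' deposited table gives it a p-value of 0.0985. Added together, the circle has a read in fetus 3 as well.

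The authors' deposited table marks circRNA2233 and circRNA2232 as significant among the UBE3A entries. For circRNA2232 that table gives a p-value of 0.0459 and a q-value of 0.574. The mark is on 831 circRNAs in all, of which 633 have a q-value above 0.05, and the highest p-value among the marked is 0.04998.

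circRNA6691, the entry without a gene that lay above circRNA2233 in each fetus library, had 247 reads in kid and 2272 in fetus. In kid 2, where UBE3A CPM was highest, entries without a gene held 8.72% of back-splice reads, against 3.91% to 5.05% in the other libraries. A single such entry, circRNA10231, held 4.24% of the reads of kid 2. It held 1.60% in kid 1, 0.676% in kid 3 and at most 0.0151% in any fetus library.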
